A study of Mus musculus with 30 samples.

Results

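Aminoacyl-tRNA synthetases are the enzymes that join each amino acid to its tRNA, and 36 of their genes were followed among the 55487 genes counted in C2C12 myotubes. The 36 were taken by name from a fixed list, 20 for the enzymes of the cytosol and 16 for the enzymes of mitochondria, whose symbols end in 2. All 36 passed the filter on low counts and were among the 15907 genes tested. C2C12 is a mouse myoblast line that fuses into myotubes, and all groups were wild type, were differentiated for 4 days and were then treated for 4 days, for 8 days in total. The groups, with 6 libraries each, remained in medium with 2% horse serum (2% HS), were serum-deprived (SD), or were serum-deprived with 100 nM metformin (MET), with 500 nM leucine (LEU) or with both (MET+LEU). The question put to the synthetases was how serum withdrawal and the treatments changed the transcripts that supply protein synthesis with charged tRNA. The labels do not say whether the 6 libraries of a group came from separate cultures, so p-values measure the spread between these libraries.

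Each cytosolic synthetase charges tRNA for one amino acid, except the fused Eprs enzyme, which charges tRNA for glutamate and for proline. Some of the cytosolic enzymes are bound together in the multisynthetase complex on the scaffold proteins encoded by Aimp1, Aimp2 and Eef1e1, and the others are free. When charging falls behind, uncharged tRNA activates the kinase GCN2 (Eif2ak4), which raises translation of the transcription factor ATF4, and many cytosolic synthetase genes are known targets of ATF4. Mitochondria translate the few proteins of their genome with nuclear-encoded synthetases, most of them from separate genes. Gars and Kars each encode both the cytosolic and the mitochondrial enzyme and are counted here among the cytosolic genes.

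A promoter sequence in the RefSeq promoter table (build GRCm38.p6, from 250 bases before to 50 bases after the annotated start) was found for 27 of the 36 genes. The composite element bound by ATF4 with C/EBP factors, TGATGNAA on either strand, occurred in 5 of the 8 reported ATF4 targets with a promoter in the table, in 0 of 5 other cytosolic genes and in 0 of 14 mitochondrial genes. It was held by 1304 of all 32851 promoters of the table (3.97%) and, counted by gene as for the synthetases, by 1219 of 27025 genes (4.51%). The sequences around all 6 matches are shown. Of the genes that hold them, Iars, Aars and Yars fell with SD and Tars rose with MET+LEU, while Gars was called in neither. Cytosolic genes whose promoter held no match were called too. Dars, Eprs and Farsb fell with SD, and with MET+LEU Dars and Eprs rose and Mars1 fell. Capitals mark the match as read on the gene's own strand, positions count from the annotated start as base 0, and no sequence beyond 30 bases past the start is shown. A match is a description of the letters and not evidence that a factor was bound.
Aars, chr8:111033690-111033777, plus strand, match at -112: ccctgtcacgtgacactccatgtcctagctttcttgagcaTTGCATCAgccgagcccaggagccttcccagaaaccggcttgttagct
Aars, chr8:111033811-111033871, plus strand, match at 9: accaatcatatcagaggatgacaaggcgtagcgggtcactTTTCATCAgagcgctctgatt
Gars, chr6:55037931-55038018, plus strand, match at -30: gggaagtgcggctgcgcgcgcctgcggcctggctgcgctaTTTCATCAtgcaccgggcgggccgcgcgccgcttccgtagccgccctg
Iars, chr13:49682097-49682159, plus strand, match at 7: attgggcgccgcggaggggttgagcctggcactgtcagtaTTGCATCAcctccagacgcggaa
Tars, chr15:11399629-11399713, minus strand, match at -15: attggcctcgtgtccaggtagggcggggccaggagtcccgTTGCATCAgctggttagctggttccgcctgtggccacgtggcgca
Yars, chr4:129189866-129189932, plus strand, match at 3: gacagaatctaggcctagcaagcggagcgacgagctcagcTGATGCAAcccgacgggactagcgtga
The 3 matches TTGCATCA at Aars, Iars and Tars and the match TGATGCAA at Yars are the same 8 letters read on opposite strands.

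The libraries held 12784960 to 19604103 counts on genes. Values are CPM, the counts of a gene relative to the library's total as scaled by TMM, and differences are log2 fold changes from edgeR's quasi-likelihood test on all genes, called at an adjusted p under 0.05. MET+LEU replicate 6 stood apart, with 5.85% of its counts on nuclear and 7.64% on mitochondrial ribosomal RNA genes. For some results in MET+LEU the value without it is also given. All 7 myotube markers were detected, with Myog, a myogenic transcription factor, at group means of 1009 to 1070 CPM, but some of them differed between the groups. In SD vs. 2% HS 1 of the 7 fell, Ckm (muscle creatine kinase), from 289 to 327 CPM in 2% HS to 139 to 180 CPM in SD (log2 fold change -0.98), and 1 rose, Des (desmin, 0.13). Of the 7, 2 rose in MET+LEU vs. SD, Tnnt3 (a troponin T), from 390 to 487 CPM in SD to 643 to 1243 CPM in MET+LEU (0.82), and Myh3 (embryonic myosin, 0.36). MET+LEU replicate 6 held the most counts of its group for both genes, 15347 for Tnnt3 and 25307 for Myh3. Values without it are not given for these markers. Of all tested genes 10.6% rose in MET+LEU vs. SD, and 13.9% were called in each direction in SD vs. 2% HS. Log2 fold changes in MET+LEU vs. SD were negative for 4 of the 7 markers, with a median of -0.007. The part of these marker shifts in the synthetase differences was not tested. The defining markers of endothelium, blood, fat and epithelium were at or near 0, with group means of at most 0.312 CPM for Pecam1 and of at most 0.0356 CPM for Ptprc, Adipoq and Krt5. In bulk RNA, fewer cells of a type and less RNA per cell cannot be told apart.

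Cytosolic synthetases were the more abundant class per exonic length. In SD, their mean levels ran from 10.1 RPKM for Cars, the cysteinyl enzyme, to 58.4 RPKM for Gars, the glycyl enzyme, with a median of 21.9 RPKM. The mitochondrial genes without Lars2 ran from 1.73 RPKM for Pars2, the prolyl enzyme, to 9.87 RPKM for Iars2, the isoleucyl enzyme, with a median of 2.69 RPKM. Gars at 58.4 ± 2.38 RPKM (SD, n = 6) lay above the next gene, Nars, at 42.2 ± 2.30 RPKM by more than the spread between libraries. Iars at 34.7 ± 1.34 RPKM and Dars at 34.1 ± 2.00 RPKM, which followed, differed by less than that spread. The order also depends on the exonic length used, which the spread does not cover. That length was 3119 bases for Gars and 18102 bases for Eprs. In SD, Eprs was at 272 to 301 CPM but 15.7 RPKM, while Gars was at 171 to 190 CPM. Of the exonic length of Iars2, 22.9% lies opposite exons of Rab3gap2, and the strand setting of the counting is not given in the sources used here, so its level is uncertain.

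**Figure D1:**
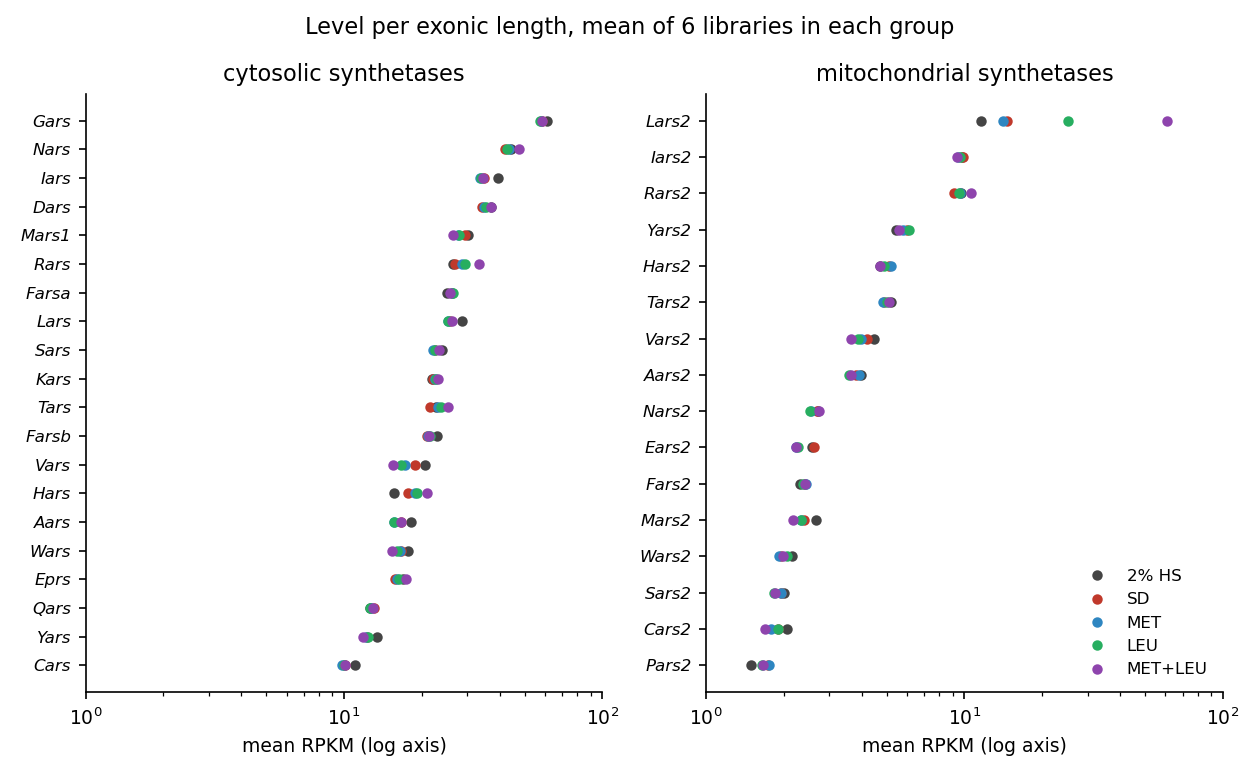
Mean level per exonic length (RPKM, log axis) of the 20 cytosolic and 16 mitochondrial synthetases, with a point for each of the 5 groups (n = 6 libraries each) and genes ordered by their level in SD. Cytosolic genes lie between about 10 and 61 RPKM in all groups, and among the mitochondrial genes Lars2 alone spreads widely between the groups, up to 60.6 RPKM in MET+LEU.

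Serum deprivation lowered 8 cytosolic synthetase transcripts by small amounts. In SD vs. 2% HS, 8 of the 36 genes (22.2%) fell and 1 (2.78%) rose, against 13.9% of all tested genes in each direction. All 9 were cytosolic. Among the 16 mitochondrial genes edgeR called 0, with 1 at an unadjusted p under 0.05, and DESeq2 and limma-voom also called 0. The median log2 fold change was -0.09 over the 20 cytosolic genes, -0.03 over the 16 mitochondrial genes and 0.00 over all genes tested.

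Among the genes that fell, the enzymes for the branched-chain amino acids isoleucine and leucine had the lowest fold changes. Vars, the cytosolic enzyme for the branched-chain amino acid valine, was not called, at 108 to 121 CPM in 2% HS and 92.4 to 119 CPM in SD. Iars (ENSMUSG00000037851, chr13:49682100-49734267), which charges tRNA for isoleucine, was at 198 to 214 CPM in 2% HS (median 208) and at 174 to 190 CPM in SD (median 184). All 6 SD libraries lay below all 6 libraries in 2% HS. Its log2 fold change was -0.18 (standard error, SE, 0.03, adjusted p = 4.5e-05). Lars, which charges tRNA for leucine and has also been described as a leucine sensor upstream of mTORC1, was at 145 to 160 CPM in 2% HS (median 155) and at 131 to 146 CPM in SD (median 137). The groups met only at their edges, and the log2 fold change was -0.16 (SE 0.04, adjusted p = 0.00043).

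Aars (ENSMUSG00000031960, chr8:111033144-111057664), the alanyl enzyme with 2 matches in its promoter, was at 164 to 173 CPM in 2% HS (median 169) and at 146 to 161 CPM in SD (median 156). The groups did not overlap, as for Iars, and 7.42% of all tested genes had all SD libraries below all 2% HS libraries. Aars fell by 0.13 on the log2 scale (SE 0.04, adjusted p = 0.0044). Exons of Exosc6 on the same strand cover 14.3% of the exonic length of Aars, so reads of these genes may be shared. Cars, Farsb (the beta subunit of the phenylalanyl enzyme), Yars (tyrosyl) and Dars (aspartyl) fell by 0.12 to 0.13 on the log2 scale, with adjusted p from 0.0056 to 0.014. Cars was at 68.3 to 75.4 CPM in 2% HS (median 73.0) and at 61.8 to 69.7 CPM in SD (median 66.5), Farsb at 55.9 to 61.4 CPM (median 60.8) and 51.7 to 59.2 CPM (median 54.9). For both genes the ranges overlapped while the medians were apart. Yars was at 75.7 to 83.3 CPM in 2% HS (median 79.7) and at 68.4 to 77.1 CPM in SD (median 73.2). Dars was at 158 to 166 CPM in 2% HS (median 160) and at 134 to 159 CPM in SD (median 148). Farsa, the alpha subunit that pairs with Farsb, did not pass the test, at 113 ± 5.57 CPM in 2% HS and 119 ± 5.08 CPM in SD (SD, n = 6).

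Eprs and Hars passed by less. Eprs was at 294 to 316 CPM in 2% HS (median 305) and at 272 to 301 CPM in SD (median 286), with overlapping ranges and a log2 fold change of -0.10 (SE 0.04, adjusted p = 0.033). Hars, the histidyl enzyme, was the gene that rose, from 36.6 to 39.9 CPM in 2% HS (median 38.1) to 36.1 to 47.7 CPM in SD (median 43.7). One SD library lay below all of 2% HS, and the log2 fold change was 0.18 (SE 0.06, adjusted p = 0.020). The call of Hars was lost without SD replicate 1 (adjusted p = 0.053) or SD replicate 3 (adjusted p = 0.071), and that of Eprs with the filter of more than 5 counts in total and without any of 2% HS replicates 1, 2 and 4 and SD replicates 1 and 2 (adjusted p from 0.061 to 0.080).

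Among the cytosolic genes, the 12 reported ATF4 targets (Aars, Cars, Eprs, Gars, Iars, Lars, Mars1, Nars, Sars, Tars, Wars and Yars) had negative log2 fold changes in 12 of 12 cases, and 6 fell. Their median was -0.10, and all 12 remained negative in all 39 alternatives. Of all tested genes, 7870 of 15907 had a negative log2 fold change. The other 8 cytosolic genes had a median of 0.02, with 2 that fell and 1 that rose. Of the 8 synthetases of the multisynthetase complex 4 fell and 0 rose, and of the 12 free enzymes 4 fell and 1 rose. These shares of genes that fell, 50% of the ATF4 targets, 25% of the other cytosolic genes, 50% of the complex and 33.3% of the free enzymes, stand beside 13.9% of all tested genes, and the differences between the subgroups were not tested. In MET+LEU vs. SD, 3 of the 12 ATF4 targets (25%) rose and 1 (8.33%) fell, against 10.6% and 7.80% of all tested genes. Of their log2 fold changes there, 6 were positive and 6 negative, with a median of -0.0005.

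**Figure D2:**
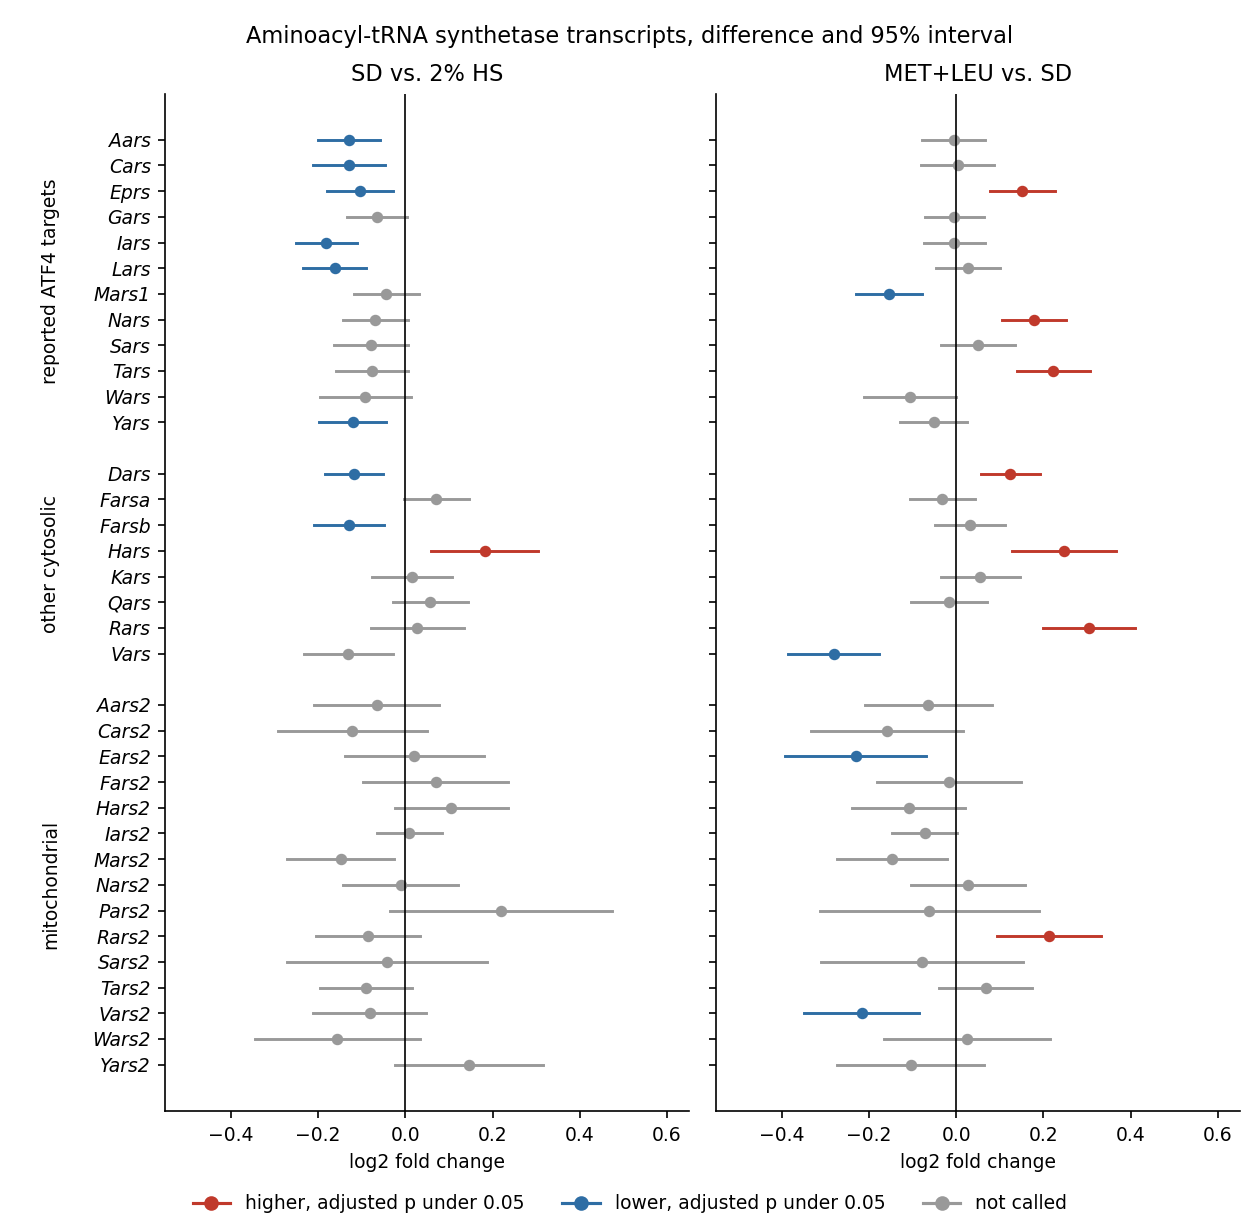
Log2 fold change and 95% interval of 35 synthetases in SD vs. 2% HS (left) and MET+LEU vs. SD (right), by class; red and blue mark genes called higher and lower at an adjusted p under 0.05, and Lars2 is not drawn. On the left all 12 reported ATF4 targets lie below 0 and none of the mitochondrial genes drawn is called, and on the right calls lie on both sides of 0.

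No synthetase passed the test with MET or LEU alone. In MET vs. SD edgeR called 0 of 36 genes (0.157% of all tested genes), with 5 at an unadjusted p under 0.05, and DESeq2 and limma-voom called 0. In LEU vs. SD edgeR called 0 of 36 (0.553% of all tested genes), with 6 at an unadjusted p under 0.05, DESeq2 called 0 and limma-voom 2, Tars and Lars2. Tars, the threonyl enzyme, was at 116 to 135 CPM in SD (median 128) and at 137 to 145 CPM in LEU (median 139), with all LEU libraries above all SD libraries, which 0.786% of all tested genes showed. Its log2 fold change of 0.14 (SE 0.04, adjusted p = 0.12) did not pass edgeR's threshold. Without MET+LEU replicate 6 in the model, a library of neither group, Tars (adjusted p = 0.010) and Vars (log2 fold change -0.17, adjusted p = 0.016) passed in LEU vs. SD, and without SD replicate 5 Vars passed (adjusted p = 0.042).

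MET+LEU moved synthetases both ways. In MET+LEU vs. SD 8 of 36 (22.2%) rose, against 10.6% of all tested genes, and 4 (11.1%) fell, against 7.80%, with medians of -0.01 over the 36 and -0.01 over all genes tested. Without MET+LEU replicate 6, 8 rose and 3 fell. The genes that rose were the cytosolic Rars, Hars, Tars, Nars, Eprs and Dars and the mitochondrial Rars2 and Lars2, and those that fell were the cytosolic Vars and Mars1 and the mitochondrial Ears2 and Vars2. MET, LEU and MET+LEU were compared with the same 6 SD libraries, as was 2% HS.

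Both arginyl enzymes rose. Rars (ENSMUSG00000018848, chr11:35808381-35834506) was at 76.8 to 95.3 CPM in SD (median 86.6) and at 97.6 to 132 CPM in MET+LEU (median 103). Its mitochondrial counterpart Rars2 (ENSMUSG00000028292, chr4:34614957-34660167) was at 23.1 to 26.5 CPM in SD (median 25.9) and at 26.9 to 31.4 CPM in MET+LEU (median 29.5). For both genes the lowest MET+LEU library was above the highest SD library, which was so for 3.41% of all tested genes. Rars rose by 0.31 on the log2 scale (SE 0.05, adjusted p = 5.1e-05), and by 0.24 without MET+LEU replicate 6. Rars2 rose by 0.21 (SE 0.06, adjusted p = 0.0081).

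Tars was at 140 to 176 CPM in MET+LEU (median 144), again above all SD libraries, with a log2 fold change of 0.22 (SE 0.04, adjusted p = 0.00012). Nars, the asparaginyl enzyme, was at 174 to 203 CPM in SD (median 180) and at 190 to 230 CPM in MET+LEU (median 205). The highest SD library lay among the MET+LEU libraries, and the log2 fold change was 0.18 (SE 0.04, adjusted p = 0.00047). Hars was at 46.1 to 61.3 CPM in MET+LEU (median 50.6), partly overlapping SD, with a log2 fold change of 0.25 (SE 0.06, adjusted p = 0.0024). Part of the Hars exons (8.0% of their length) lies opposite exons of Hars2, which itself did not pass (log2 fold change -0.11). Eprs rose by 0.15 and Dars by 0.12. The call of Dars was lost in a model of only the groups compared (adjusted p = 0.080) and with the GC content offset (log2 fold change 0.05, adjusted p = 0.25).

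Both valyl enzymes fell. Vars (ENSMUSG00000007029, chr17:35000987-35016322) was at 92.4 to 119 CPM in SD (median 107) and at 70.1 to 91.6 CPM in MET+LEU (median 89.5), and all MET+LEU libraries lay below all SD libraries, as for 1.93% of all tested genes. Its log2 fold change was -0.28 (SE 0.05, adjusted p = 0.00012). The mitochondrial Vars2 (ENSMUSG00000038838, chr17:35655634-35667592) was at 20.9 to 28.05 CPM in SD (median 22.1) and at 16.8 to 21.8 CPM in MET+LEU (median 20.6), with overlapping ranges and a log2 fold change of -0.22 (SE 0.07, adjusted p = 0.015). Mars1, the methionyl enzyme, was at 95.5 to 106 CPM in SD (median 99.9) and at 84.6 to 95.6 CPM in MET+LEU (median 89.9), and the ranges met only at their edges. Its log2 fold change was -0.15 (SE 0.04, adjusted p = 0.0025). Ears2, the mitochondrial glutamyl enzyme, was at 11.4 to 15.3 CPM in SD (median 13.7) and at 10.8 to 12.6 CPM in MET+LEU (median 11.2), with a log2 fold change of -0.23 (SE 0.08, adjusted p = 0.038). Ears2 lost its call in 10 of 39 alternatives, among them those without SD replicates 1, 3, 5 or 6 or MET+LEU replicates 2, 3 or 4 (adjusted p from 0.054 to 0.12), and Vars2 in 5, among them those without SD replicate 1 (log2 fold change -0.15, adjusted p = 0.11) and without MET+LEU replicate 6 (adjusted p = 0.052).

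**Figure D3:**
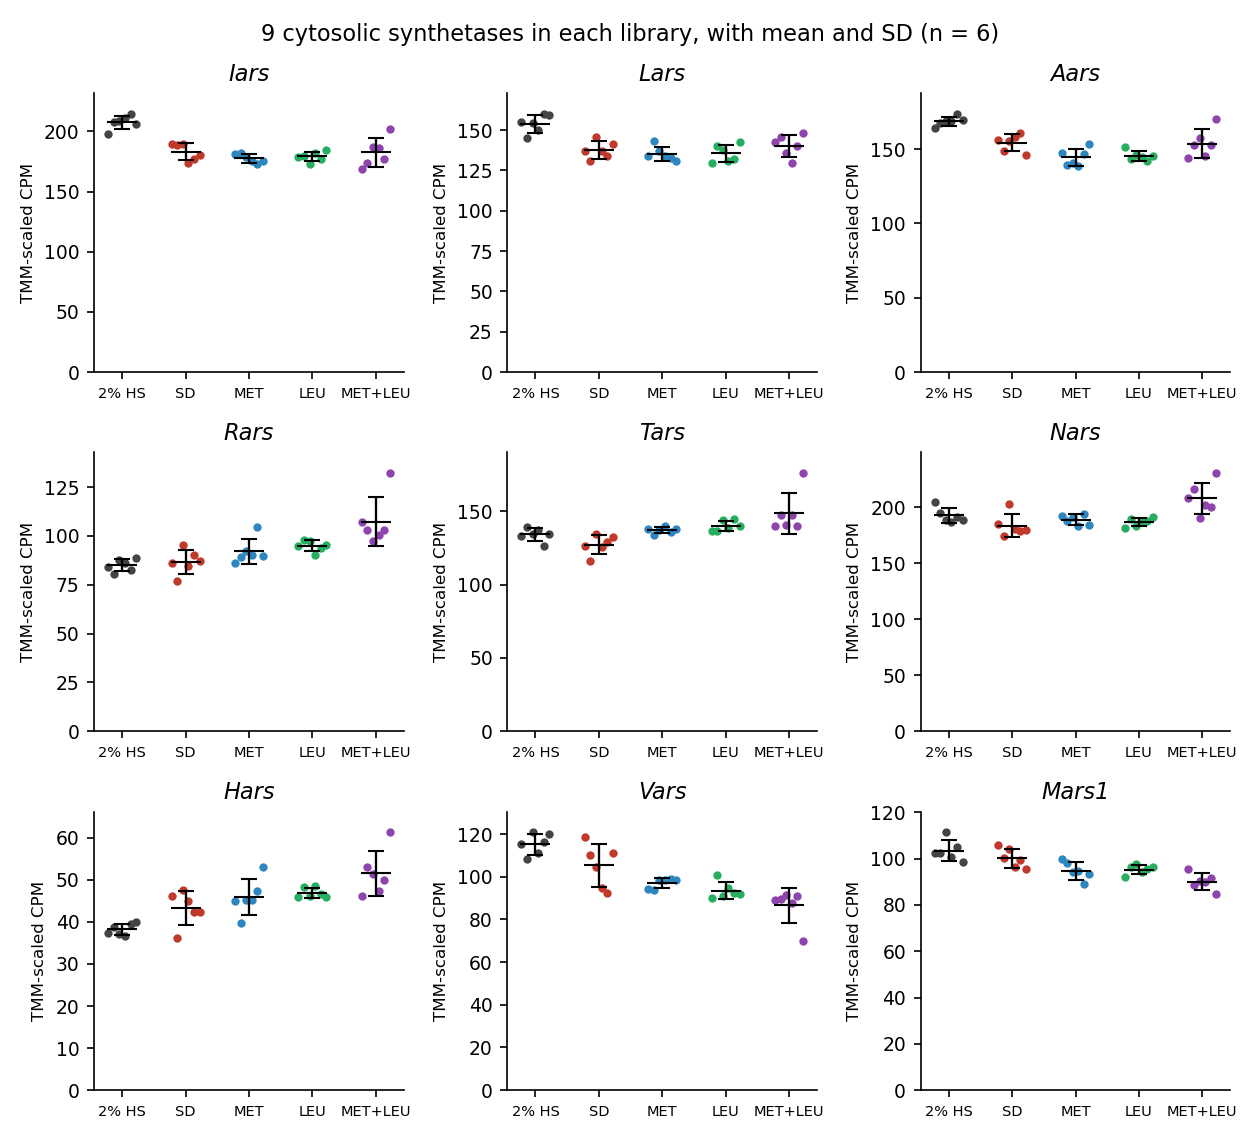
TMM-scaled CPM of 9 cytosolic synthetases in each library of the 5 groups, with the mean and standard deviation (black, n = 6). Iars, Lars and Aars are highest in 2% HS, while Rars, Tars, Nars and Hars have their highest and Vars and Mars1 their lowest group mean in MET+LEU, where replicate 6 holds the highest Rars value (132 CPM) and the lowest Vars value (70.1 CPM).

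The base composition of the transcripts went along with these directions. The GC content of the longest transcript was 41.2% to 50.4% (median 45.9%) in the 7 genes that rose, leaving out Lars2, and 50.5% to 60.9% (median 56.0%) in the 4 that fell. In the 24 genes not called it was 38.8% to 60.1% (median 49.8%). Over the 35 genes without Lars2, Pearson's r between GC content and the log2 fold change in MET+LEU vs. SD was -0.45 (Spearman's rho -0.48), as a description across genes of the same libraries, and 0.01 in SD vs. 2% HS (rho 0.05). With a GC content offset for each library, an alternative chosen after seeing the data, r was -0.07 in MET+LEU vs. SD but -0.22 (rho -0.29) in SD vs. 2% HS, where there had been no slope before. With the offset, 7 genes rose and 4 fell in MET+LEU vs. SD, and those that fell were not all the same genes as before. The log2 fold change of Rars was then 0.27, that of Tars 0.19, that of Hars 0.25 and that of Rars2 0.16, and all 4 passed. That of Vars was -0.15 (adjusted p = 0.0024), and Vars2 no longer passed at -0.11 (adjusted p = 0.18). The part of base composition in these differences was not tested beyond this offset.

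**Figure D4:**
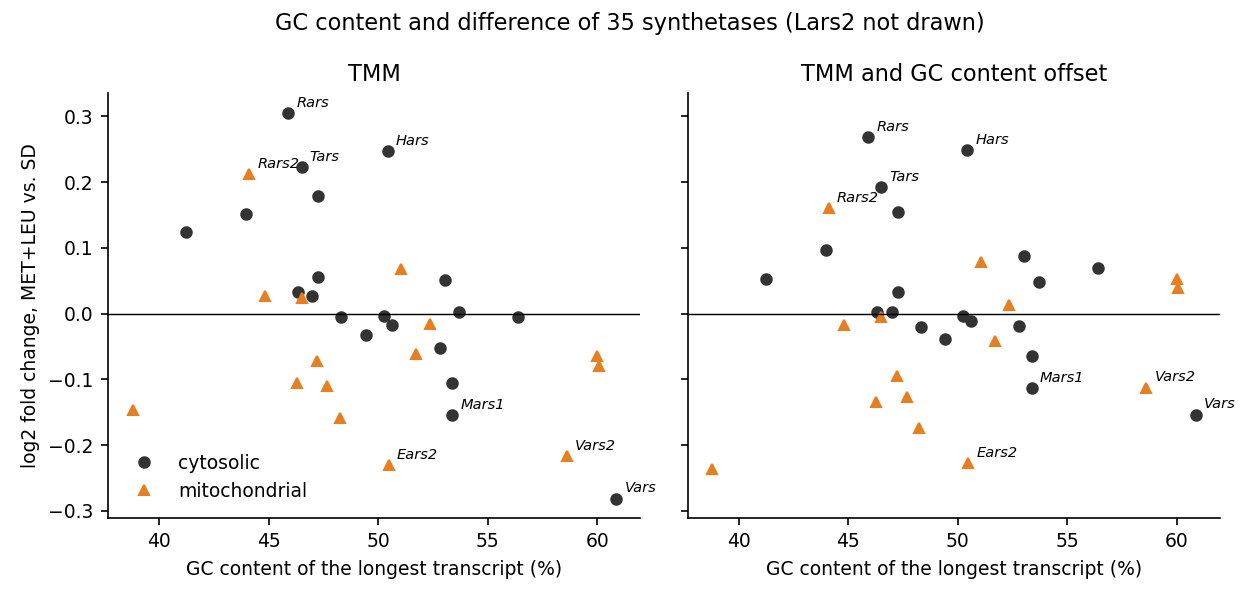
GC content of the longest transcript (%) against the log2 fold change in MET+LEU vs. SD for 35 synthetases (Lars2 not drawn), with TMM scaling (left) and with TMM and the GC content offset (right); circles are cytosolic and triangles mitochondrial genes. The downward slope on the left (r = -0.45) is nearly gone on the right (r = -0.07), where Rars and Hars still lie highest.

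Lars2, the mitochondrial leucyl enzyme (ENSMUSG00000035202, chr9:123366927-123462666), had the greatest log2 fold change of the 36 genes in MET+LEU vs. SD and is treated apart, because reads of ribosomal RNA can be counted on it. It was at 80.0 to 302 CPM in SD (median 147) and at 337 to 1401 CPM in MET+LEU (median 508), and the groups did not overlap. Lars2 rose by 2.05 on the log2 scale (SE 0.37, adjusted p = 0.00035), and by 1.70 without MET+LEU replicate 6. The share of counts on nuclear ribosomal RNA genes was 0.209% to 0.890% in SD (median 0.450%) and 0.659% to 5.85% in MET+LEU (median 1.13%). Per 1000 counts on those genes, Lars2 had 33.3 to 40.2 counts in SD, 28.5 to 34.8 in MET and 37.4 to 48.1 in LEU. In MET+LEU the ratio was 19.2 in replicate 6 and 44.1 to 50.3 in the other libraries, which lay above all SD libraries. Lars2 moved with ribosomal RNA from library to library, and how many of its counts come from its own mRNA was not tested.

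**Figure D5:**
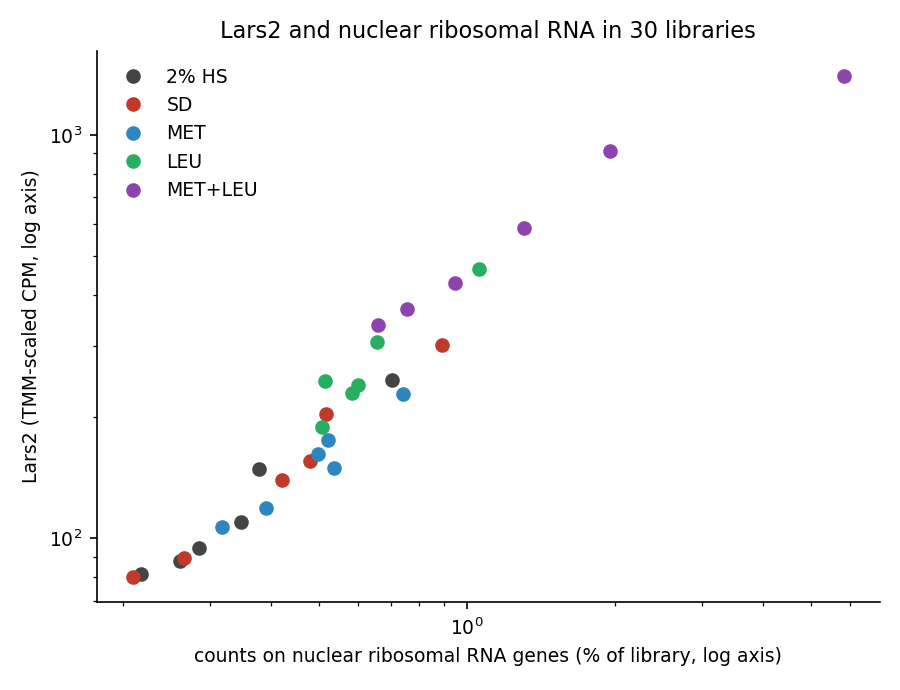
Lars2 (TMM-scaled CPM, log axis) against the share of counts on nuclear ribosomal RNA genes (% of the library, log axis) in the 30 libraries, colored by group. Points of all groups lie along one rising band, from 79.95 CPM at 0.209% in an SD library to 1401 CPM at 5.85% in MET+LEU replicate 6. Within the band, Lars2 per count on those genes was higher in all LEU libraries than in all MET libraries.

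The synthetases that fell in SD vs. 2% HS did not move together in MET+LEU vs. SD, in comparisons that share the SD libraries. Iars differed between MET+LEU and SD by 0.00 on the log2 scale (95% interval -0.07 to 0.07), Aars by -0.01 (-0.08 to 0.07) and Lars by 0.03 (-0.05 to 0.10). In MET+LEU vs. 2% HS these genes were lower, with log2 fold changes of -0.19, -0.14 and -0.14. Eprs and Dars, in contrast, fell in SD vs. 2% HS and rose in MET+LEU vs. SD, and their log2 fold changes in MET+LEU vs. 2% HS were 0.05 (95% interval -0.03 to 0.12) and 0.01 (-0.06 to 0.07).

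In MET+LEU vs. 2% HS 5 of 36 genes (13.9%) rose, against 22.1% of all tested genes, and 13 (36.1%) fell, against 20.3%. The greatest changes were those of Lars2 (2.39), Hars (0.43, adjusted p = 9.8e-08), Vars (-0.41, adjusted p = 8.7e-09), Rars (0.33, adjusted p = 1.3e-06) and Vars2 (-0.30, adjusted p = 0.00022). For these 5 genes the groups did not overlap, which was so in the higher direction for 11.5% and in the lower direction for 9.51% of all tested genes. Tars and Nars also rose, and the others that fell were Mars1, Wars, Iars, Yars, Aars, Lars, Cars and Farsb in the cytosol and Mars2, Cars2 and Ears2 in mitochondria.

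Few genes of any kind were called between the combination and each agent alone. In MET+LEU vs. LEU they were 8.33% of the synthetases and 6.28% of all tested genes. In MET+LEU vs. MET the shares were 13.9% and 8.69%. In MET+LEU vs. LEU 3 of 36 rose (4.61% of all tested genes), Nars (0.15, adjusted p = 0.0093), Rars (0.17, adjusted p = 0.036) and Lars2 (1.27, adjusted p = 0.036), and 0 fell (1.67%). Nars was at 182 to 191 CPM in LEU (median 188), overlapping MET+LEU. Without MET+LEU replicate 6 or without LEU replicate 1, 4, 5 or 6, 1 gene was called. The call of Rars was lost in 15 of 39 alternatives, among them DESeq2 size factors, upper-quartile scaling, limma-voom, the GC content offset and the fits without 2% HS replicate 4, LEU replicate 1, 3, 4, 5 or 6 or MET+LEU replicate 1, 5 or 6. Without MET+LEU replicate 6 its log2 fold change was 0.10 (adjusted p = 0.21). Lars2 lost its call in 10 alternatives, among them those without LEU replicate 1, 2, 4, 5 or 6 or MET+LEU replicate 4 or 6, and Nars lost it when the fit held no other groups. In MET+LEU vs. MET 4 rose (5.54%), Rars (0.22, adjusted p = 0.0065), Nars (0.14, adjusted p = 0.014), Eprs (0.12, adjusted p = 0.043) and Lars2 (2.10, adjusted p = 0.0011), and Vars fell (3.15%; -0.16, adjusted p = 0.041). Rars was at 86.1 to 105 CPM in MET (median 90.1), and its highest MET library lay among the MET+LEU libraries. Without MET+LEU replicate 6, 2 genes were called, and 3 without MET replicate 1, 3, 4 or 5. Eprs lost its call in 17 of 39 alternatives, among them DESeq2 size factors, limma-voom, the GC content offset and the fits without 2% HS replicate 4, without any 1 of the MET libraries or without MET+LEU replicate 1, 4, 5 or 6, and without the last its log2 fold change was 0.06 (adjusted p = 0.29). Vars lost its call in 9, among them limma-voom, the GC content offset (-0.06, adjusted p = 0.32) and the fits without MET replicate 1, 3, 4, 5 or 6 or MET+LEU replicate 6 (-0.11, adjusted p = 0.13). Nars was not called without MET+LEU replicate 6, and neither Nars nor Rars was called when the fit held no other groups. The interaction of MET and LEU, the test of whether the combination differed from the sum of its parts, called 0 of 36 with edgeR (0.0503% of all tested genes), with 3 at an unadjusted p under 0.05, and 0 with DESeq2 and limma-voom.

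The genes that sense uncharged tRNA or act under ATF4 were counted from a fixed list of 22, all tested. In SD vs. 2% HS 15 (68.2%) fell, against 13.9% of all tested genes, and 0 rose, with a median log2 fold change of -0.24. With MET+LEU, 15 (68.2%) fell against SD, where 7.80% of all tested genes did, and 1 rose, with a median of -0.23, and the medians over all genes tested were 0.00 and -0.01. In MET vs. SD 2 fell (Chac1 and Slc7a5), and in LEU vs. SD 2 fell (Slc7a5 and Slc7a1), where 0.157% and 0.553% of all tested genes were called in either direction. Log2 fold changes were negative for 18 of the 22 in MET vs. SD (median -0.12) and for 19 in LEU vs. SD (median -0.14). The medians over all genes tested were -0.005 and -0.006. In each comparison 12 of the 22 had an unadjusted p under 0.05 with edgeR, against 1597 and 1588 of all 15907 genes tested. Slc7a5, the transporter that brings leucine into the cell, was at 186 to 203 CPM in 2% HS (median 195), at 130 to 153 CPM in SD (median 136) and at 100.0 to 115 CPM in MET+LEU (median 114). The 3 ranges did not overlap, with log2 fold changes of -0.50 (adjusted p = 2.3e-14) and -0.31 (adjusted p = 6.1e-07). Asns, asparagine synthetase, fell in SD vs. 2% HS (-0.53, adjusted p = 1.5e-11) and was called in neither direction in MET+LEU vs. SD (-0.09, adjusted p = 0.27). The Atf4 transcript was called in neither direction in SD vs. 2% HS (0.06, adjusted p = 0.20) and fell in MET+LEU vs. SD (-0.14, adjusted p = 0.0036). Nupr1, a stress-induced regulator, was the gene of the list that rose (0.40, adjusted p = 0.00080).

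Partners of the synthetases were counted from 4 other lists, to be read against the 10.6% of all tested genes that rose and 7.80% that fell in MET+LEU vs. SD and the 13.9% that fell in SD vs. 2% HS. Of the 3 scaffold genes of the multisynthetase complex, 0 were called in SD vs. 2% HS by edgeR (0 at an unadjusted p under 0.05), and Aimp1 rose in MET+LEU vs. SD (0.35, adjusted p = 0.0025). The highest MET+LEU value of Aimp1, 54.2 CPM, was that of replicate 6, and the next was 45.1 CPM. Of 5 genes that complete mitochondrial charging, Gatb (0.23, adjusted p = 0.050) and Gatc (0.23, adjusted p = 0.016) rose and Qrsl1 fell (-0.29, adjusted p = 0.0091) in MET+LEU vs. SD. These 3 encode the subunits of the amidotransferase that makes glutaminyl-tRNA in mitochondria. Of 16 genes of tRNA maturation and export, 4 (25%) rose in MET+LEU vs. SD, among them Ssb, the La protein that binds new tRNA transcripts (0.54, adjusted p = 4.6e-05), and 1 fell in SD vs. 2% HS, Xpot, the tRNA exporter (-0.12, adjusted p = 0.014). Of 8 genes of editing and hydrolysis, Dtd1 (0.38, adjusted p = 0.0028) and Tarsl2, a second threonyl enzyme of the cytosol (0.24, adjusted p = 0.032), rose in MET+LEU vs. SD. Of the 5 markers of undifferentiated or cycling cells, Mki67, Top2a and Ccnb1 fell in MET+LEU vs. SD, by 0.35, 0.64 and 0.89 on the log2 scale, Pax7, a marker of muscle stem cells, fell in SD vs. 2% HS by 0.37, and their part in the synthetase differences was not tested.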

How the data were processed

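Total RNA of C2C12 myotubes (5 groups, 6 libraries each) was depleted of ribosomal RNA, made into stranded libraries and sequenced by the authors. The authors deposited raw read counts for 55487 Ensembl genes, not normalized. The submitters' processing notes name cutadapt 1.16, STAR 2.7.6a, featureCounts 1.6.3, DESeq2 1.30.1 and build GRCm38. The strand setting and the treatment of reads with several matches are not given in the sources used here, so overlapping, antisense and repeat-bearing genes are uncertain. GENCODE M21 (GRCm38) gave symbols, lengths, GC content and coordinates for 55227 identifiers. The other 260 held 0.0043% of the counts.

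Counts were analysed in R 4.3.3 with edgeR 4.0.16: filterByExpr (minimum count 10, minimum total count 15, smallest group 6), TMM, and a quasi-likelihood F test with robust dispersion in a model of the 5 group means over all 30 libraries. The p-values were adjusted by Benjamini-Hochberg over the 15907 genes tested, with a threshold of 0.05. The common biological coefficient of variation was 0.0709. RPKM used the exonic length of all transcripts of a gene. Nuclear ribosomal RNA was the sum over genes of that GENCODE type. The script was tested on simulated data.

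Members, gene lists and tests were chosen with earlier results of these data known. The genes named with full values were the called members (at most 10 for SD against 2% HS and for MET+LEU against SD, at most 5 elsewhere), Lars2, and the highest and lowest members per length. Others were named from the fixed lists. Alternatives were DESeq2 size factors, upper-quartile scaling, the Wald test of DESeq2 1.42.0, limma-voom (limma 3.58.1) with weights for sample quality, 2 other filters, a fit of the 2 or 4 groups compared alone, a block for the replicate number, leaving out each library, and, chosen after seeing the data, an offset for GC content. Not every result of the accompanying gene lists is reported here.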

Additional observations from a re-analysis of the deposited data

Results flagged for a closer look

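In each group of 6 libraries, the highest and the lowest CPM of each synthetase were set against the others with Dixon's ratio at its 95% critical value. A library stood apart in 12 of 180 groups, and chance gives about 1 in 20. MET+LEU replicate 6, the library with the most ribosomal RNA, gave 5 of the 12, with the highest values of its group for Eprs (367.9 CPM, next 310.2), Tars (176.1 CPM, next 147.6), Rars (132.2 CPM, next 107.0) and Cars (69.99 CPM, next 66.01) and the lowest for Vars (70.07 CPM, next 87.94). The log2 fold changes of these genes in MET+LEU vs. SD without that library stand in the report for Rars, and were 0.10 for Eprs, 0.17 for Tars and -0.23 for Vars, all 3 past the threshold. MET replicate 5 was highest for Rars (104.7 CPM) and lowest for Wars (52.84 CPM) in its group. The others were Cars2, lowest in MET replicate 1 (10.29 CPM), Hars2, highest in 2% HS replicate 1 (21.71 CPM), Iars2, lowest in LEU replicate 4 (77.64 CPM), Mars2, highest in SD replicate 2 (33.41 CPM), and Yars2, highest in LEU replicate 1 (21.2 CPM).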

How the results depend on the processing

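The counts of synthetases called in SD vs. 2% HS (8 to 10 when 1 library was left out), in MET+LEU vs. SD (10 to 12) and in MET+LEU vs. 2% HS (16 to 19) stayed within 1.5 times the reported count under all alternatives run, and 0 were called in MET vs. SD and in the interaction under all of them. LEU vs. SD gave 2 with limma-voom, 2 with the GC content offset and 0 to 2 when 1 library was left out. MET+LEU vs. LEU gave 1 with genes of more than 5 counts in total, 0 in a model of only the groups compared and 1 to 3 when 1 library was left out. MET+LEU vs. MET gave 3 with limma-voom, 1 in a model of only the groups compared and 2 to 6 when 1 library was left out. Lars2 in MET vs. SD, which did not pass, reversed its direction to 0.20 with limma-voom and to 0.02 to 0.23 without SD replicate 1 or 2 or MET replicate 1 or 2 (-0.19 to 0.23 over the fits that left out 1 library). The cause was not tested. Over all genes, upper-quartile scaling turned the balance in MET+LEU vs. SD from 1690 higher and 1241 lower to 1446 and 1556, while 8 synthetases rose and 4 fell under both. The labels do not say whether replicate numbers pair libraries across groups. Deviations from the group means correlated at 0.016 on average over 60 same-numbered pairs, 2 of them over 0.1, and at -0.003 otherwise. A block for the replicate number raised the calls over all genes in every comparison, from 25 to 52 in MET vs. SD and from 2931 to 3113 in MET+LEU vs. SD. With the replicate block 10 synthetases were called in SD vs. 2% HS, 2 in MET+LEU vs. LEU, where Lars2 lost its call (adjusted p = 0.071), and the other counts did not change. In SD vs. 2% HS the 95% interval on the log2 scale ran from -0.42 to 1.11 for Lars2, the widest of the 36, and from -0.04 to 0.47 for Pars2, the least abundant gene.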
